A study of Homo sapiens with 29 samples.

Results

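The 10 genes described here are feedback genes of the ERK pathway, measured in hTERT RPE-1 (RPE1) cells sorted for micronuclei: the dual-specificity phosphatases DUSP1, DUSP4, DUSP5, DUSP6 and DUSP10, the Sprouty genes SPRY2 and SPRY4, the Spred genes SPRED1 and SPRED2, and the transcription factor gene ETV5. They were chosen by name, with earlier results of these data known, so shares of all genes set beside them are a description. All 10 were present in each of 3 deposited tables. These held 10577 genes for Mps1i against DMSO, 10594 for MN+ against MN- and 9461 for rupture+ against rupture-. RPE1 is a telomerase-immortalised, non-transformed line from human retinal pigment epithelium, and the cells used here came from a single reporter line that carries a nuclear 3xDendra2 and H2B-emiRFP703. The groups were DMSO (solvent, 4 libraries), Mps1i (BAY1217389 at 100 nM for 24 h, 4 libraries), MN- and MN+ (cells without and with a micronucleus from cultures given the same inhibitor, 4 libraries each), and rupture- and rupture+ (micronucleated cells with only intact micronuclei, and with at least 1 ruptured micronucleus, from inhibitor-treated cultures, 3 libraries each). Mps1 is a kinase of the spindle assembly checkpoint, and cells that divide without it missegregate chromosomes and form micronuclei. In visual cell sorting, chosen cells are marked on the microscope by a UV pulse of 200 or 800 ms that converts Dendra2, and are then sorted by colour. By the study's own estimates, the image classifier put some cells in the wrong class. The MN and rupture groups were therefore enriched for their class and not pure. The paper also estimated that some intact micronuclei would rupture during a run. The study's methods give all sorted cells, DMSO included, RO-3306, an inhibitor of Cdk1, at 10 µM from 1 h before imaging. For the rupture libraries the sample labels name a pre-treatment with RO-3306 for 20 h, whereas the methods describe synchronisation with a Cdk4/6 inhibitor. Every rupture+ library had the 200 ms pulse and every rupture- library the 800 ms pulse, so these conditions cannot be told apart from pulse length.

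ERK is the last kinase of the cascade that runs from growth factor receptors through RAS, RAF and MEK. Many of the genes that active ERK switches on encode inhibitors of the same cascade, and their mRNA is widely read as a record of recent ERK activity. DUSP proteins remove phosphate from MAP kinases: DUSP6 acts on ERK in the cytoplasm, DUSP5 on ERK in the nucleus, DUSP1 and DUSP4 on several MAP kinases in the nucleus, and DUSP10 mainly on the stress kinases p38 and JNK. Sprouty proteins act between receptor and RAF, and Spred proteins bring neurofibromin, a RAS inactivator, to the membrane. ETV5 is an ETS transcription factor of the PEA3 group whose gene is itself induced by ERK signalling.

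The samples came from 2 experiments for Mps1i and DMSO, 2 for MN+ and MN-, and 3 for rupture+ and rupture-, so the p-values below measure the spread between these libraries. For Mps1i and DMSO the study assigned nuclei to a pulse at random and describes each experiment as 2 technical replicates. The 2 pulse libraries of a condition and experiment are therefore not independent replicates. Total counts ranged from 47919780 to 145242185 per library, and the MN- library with the 200 ms pulse of experiment 2 held 62831160 counts, against 116934561 to 136865912 in the other MN libraries of that experiment. The labels divide each of those other libraries into parts r1 and r2 and list r1 alone for this one. Of 11 RPE1 identity markers listed, 6 were in each table (KRT8, KRT18, VIM, CDH2, MITF and OTX2), and RPE65, RLBP1, BEST1, TYR and PMEL, markers of differentiated pigment epithelium, were not. None of the 6 listed markers of other cell types was in any table, from which genes under 700 counts in all but 1 library had been removed. Levels are given as CPM, counts scaled to a common library size after TMM normalization within a table. In sorted bulk samples, a change in how many cells express a gene and a change in RNA per cell cannot be told apart.

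RefSeq windows of 7 members were searched, and the promoters of 4 of these are shown here. Among the 7, DUSP10, DUSP6 and DUSP1 had the highest estimates after Mps1i and SPRY4 the lowest. Of these 4 genes, DUSP1 and DUSP10 passed the edgeR test at an adjusted p of 0.05, and DUSP6 and SPRY4 did not. Each is the 250 bases before the RefSeq start on GRCh38.p14, written 5′ to 3′ along the gene. Capitals mark matches, on either strand, to the cyclic AMP response element TGACGTCA or its core TGACG, which are bound by CREB and ATF factors. Matches to the AP-1 motif TGANTCA, the ETS motif CCGGAA and the serum response CArG box were searched as well. Shorter or variant ETS motifs were not searched.
DUSP1, chr5:172771196-172771445, minus strand: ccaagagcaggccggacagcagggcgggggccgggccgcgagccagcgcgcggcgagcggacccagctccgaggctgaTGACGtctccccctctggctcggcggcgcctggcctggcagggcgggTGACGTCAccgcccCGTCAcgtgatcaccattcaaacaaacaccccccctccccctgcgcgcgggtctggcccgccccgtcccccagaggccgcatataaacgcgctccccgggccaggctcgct
DUSP10, chr1:221742090-221742339, minus strand: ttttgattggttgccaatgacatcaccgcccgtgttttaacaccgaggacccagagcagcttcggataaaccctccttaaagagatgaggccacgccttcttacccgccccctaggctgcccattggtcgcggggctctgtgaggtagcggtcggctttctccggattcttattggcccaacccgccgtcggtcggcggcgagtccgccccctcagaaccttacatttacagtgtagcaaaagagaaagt
DUSP6, chr12:89352502-89352751, minus strand: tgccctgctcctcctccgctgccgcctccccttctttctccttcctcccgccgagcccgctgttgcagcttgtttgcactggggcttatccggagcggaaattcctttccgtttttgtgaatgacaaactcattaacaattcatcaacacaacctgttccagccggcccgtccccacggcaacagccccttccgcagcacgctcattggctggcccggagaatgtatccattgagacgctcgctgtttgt
SPRY4, chr5:142324248-142324497, minus strand: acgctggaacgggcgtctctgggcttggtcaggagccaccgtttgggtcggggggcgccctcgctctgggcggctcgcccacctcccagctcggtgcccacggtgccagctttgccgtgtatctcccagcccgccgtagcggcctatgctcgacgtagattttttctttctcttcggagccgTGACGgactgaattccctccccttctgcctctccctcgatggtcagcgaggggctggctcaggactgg
DUSP1 held the full element, beginning at base -125 from its start, and 4 matches to the core, at bases -172, -125, -122 and -111, of which those at -125 and -122 lie within the full element. SPRY4 held 1 core match, at base -68, and neither DUSP6 nor DUSP10 held a match to any motif searched in the windows shown. Of the members not shown, SPRY2, which was not called either, held a core match at base -190 and an ETS match at base -142 in its first window and none in its other windows, and the windows of SPRED1 and SPRED2 held none. Among all 35116 RefSeq windows of the same length, 1.65% held TGACGTCA and 21.2% held TGACG. The shares for the other motifs were 6.57% for TGANTCA, 14.5% for CCGGAA and 1.16% for the CArG box. A match is a description of these letters and not a bound site.

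Across the 6 conditions the members differed far more from each other than within a gene. Per kilobase of exon, DUSP1 stood highest, with condition means from 235 to 324 CPM per kb, followed by ETV5 at 19.7 to 27.6, DUSP5 at 18.2 to 23.3, SPRY2 at 16 to 19.2 and DUSP6 at 14.6 to 19.0 CPM per kb. SPRED2 (6.26 to 7.84 CPM per kb), DUSP4 (4.88 to 6.77), SPRED1 (3.38 to 6.51) and DUSP10 (3.21 to 6.32) were lower, and SPRY4 was lowest at 1.61 to 1.95 CPM per kb. Within a gene, the highest condition mean was between 1.2 times (SPRY2) and 1.97 times (DUSP10) the lowest. Ordered by condition means, most neighbouring conditions had overlapping ranges. Exceptions were DUSP10, for which every DMSO library was below every Mps1i library, the next condition in order, and ETV5, for which the rupture- libraries all lay below those of MN-. Conditions from different tables were prepared and scaled separately, so their order is given as a description. Scaling all 22 libraries together moved the members' means by at most 0.03 on the log2 scale.

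**Figure D1:**
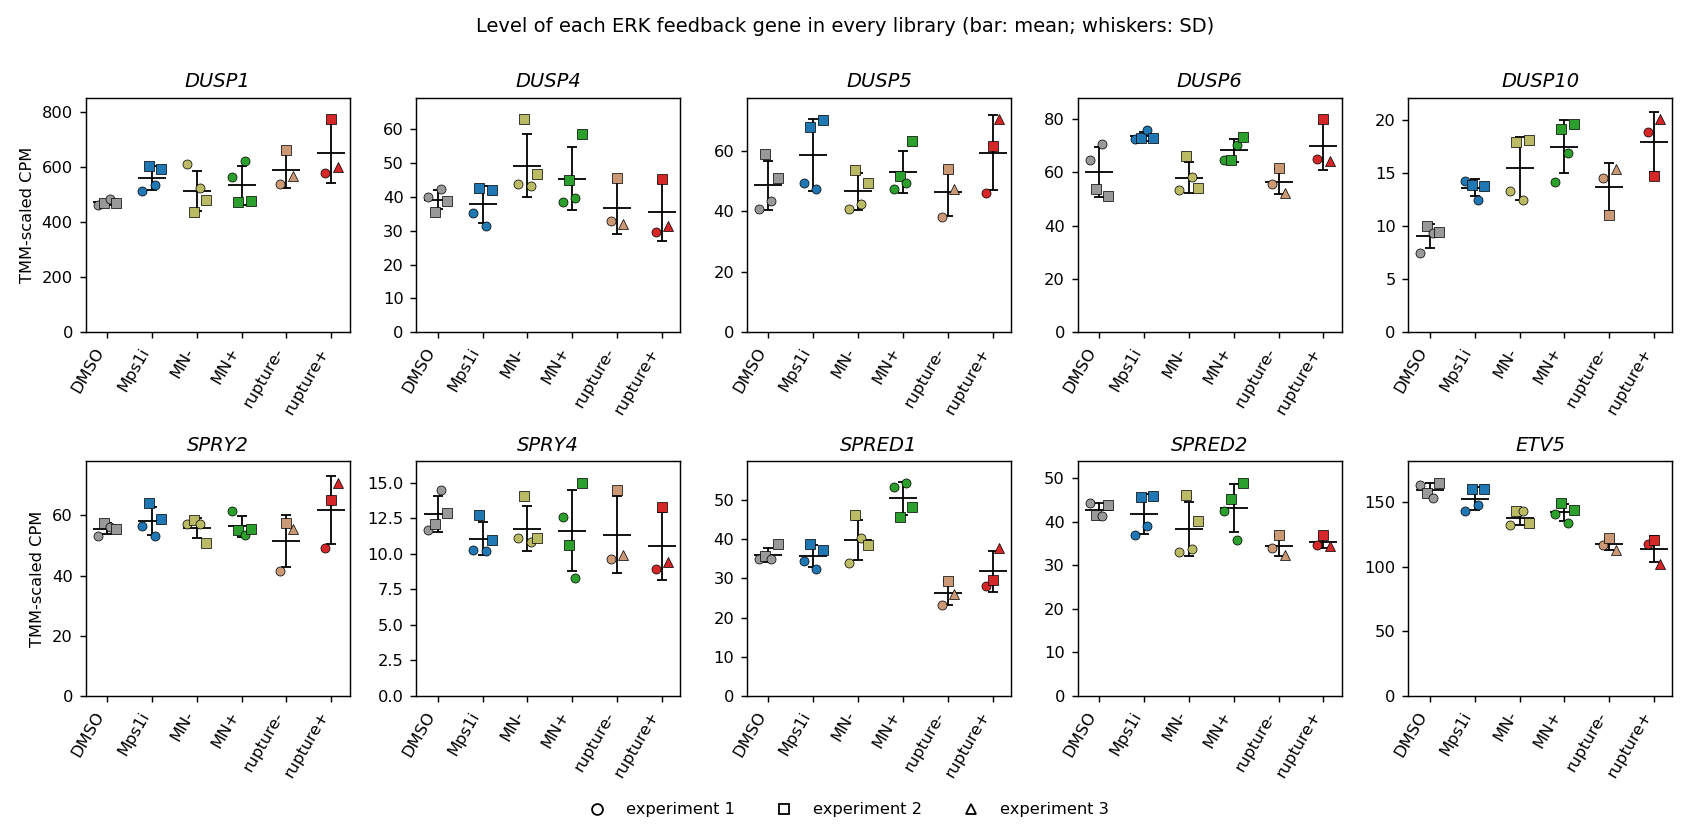
Level of each of the 10 genes in every library, in TMM-scaled CPM on a linear axis from 0, by condition. Points are libraries, their shape gives the experiment, and the bar and whiskers are the mean and SD of a condition. DUSP10 in DMSO (7.43 to 9.98 CPM) lies below all other conditions, and ETV5 in the rupture libraries (102 to 122 CPM) lies below the rest.

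The comparison of Mps1i with DMSO asked how sorted cells given the inhibitor differ from sorted cells given solvent. Missegregation and other effects of the inhibitor cannot be told apart in it. The paper reports that the program used to find nuclei often missed highly lobulated ones, so the sorted cells are not the whole culture. DUSP1 and DUSP10 rose after Mps1i, by 1.19 and 1.5 times, and no member fell. The other 8 did not pass the test, which was edgeR's quasi-likelihood test with Benjamini-Hochberg adjustment over all genes and a threshold of 0.05. Of all 10577 genes, 6.32% were called higher and 5.76% lower. With the experiment as a block, which removes the differences between days, 4 members were called higher (DUSP1, DUSP5, DUSP6 and DUSP10) and none lower, against 12.7% and 11.8% of all genes. DUSP4, the Sprouty and Spred genes and ETV5 were called in neither fit. The median log2 fold change of the 10 members was 0.02, beside -0.0038 for all genes tested.

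DUSP10 (chr1:221701424-221742089, minus strand), the p38 and JNK phosphatase, changed most of the members. Its level in DMSO was 7.43 and 9.40 CPM in the 200 ms and 800 ms libraries of experiment 1 and 9.98 and 9.48 CPM in those of experiment 2. In Mps1i it was 14.3 and 12.5 CPM in experiment 1 and 13.9 and 13.8 CPM in experiment 2. Every Mps1i library stood above every DMSO library, which was so for 10.1% of all genes. DUSP10 had a log2 fold change of 0.59 (SE 0.097, 95% interval 0.37 to 0.80, adjusted p = 0.0036 by edgeR). It was the only member still called when experiment 2 was left out, with an adjusted p of 0.035 by edgeR. Its counts per library in this table were 550 to 2033, the fewest of the called members.

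DUSP1 (chr5:172768096-172771195, minus strand), an immediate early gene whose product inactivates MAP kinases in the nucleus, was the most abundant member. In DMSO it lay within a narrow band, at 463 and 485 CPM in experiment 1 and 469 and 471 CPM in experiment 2. In Mps1i it was 514 and 534 CPM in experiment 1 and 603 and 591 CPM in experiment 2. Every Mps1i library lay above every DMSO library, as for 10.1% of all genes, and the libraries of experiment 2 rose further. The fitted log2 fold change of DUSP1 was 0.25 (SE 0.052, 95% interval 0.13 to 0.36, adjusted p = 0.0124 by edgeR). Without experiment 2 it was 0.15 and was not called, with an adjusted p of 0.133 by edgeR. That fit had fewer libraries and called 284 genes higher and 240 lower, against 668 and 609 with all libraries.

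DUSP6 (chr12:89347235-89352501, minus strand), the cytoplasmic ERK phosphatase, had nearly the same level in all Mps1i libraries, 72.3 and 75.7 CPM in experiment 1 and 72.9 and 72.7 CPM in experiment 2. The DMSO libraries were apart by experiment, at 64.7 and 70.7 CPM in experiment 1 and 53.5 and 51.1 CPM in experiment 2. Every Mps1i library lay above every DMSO library, as for 10.1% of all genes, although the highest DMSO library came within a few CPM of the lowest Mps1i library. The log2 fold change was 0.29 (SE 0.090, 95% interval 0.095 to 0.49), with an adjusted p of 0.0559 by edgeR without the block and 0.00732 with it. DUSP6 was also called by DESeq2's likelihood ratio test (adjusted p = 0.0131) and by limma-voom (adjusted p = 0.0295). Its estimate was larger in experiment 2: without experiment 1 it was 0.48 (adjusted p = 0.000121 by edgeR), and without experiment 2 it was 0.13 (adjusted p = 0.322). Of the 8 fits that left out a single library, the one without the 800 ms DMSO library of experiment 1 called DUSP6 (adjusted p = 0.0143), and the others gave adjusted p from 0.0604 to 0.136 by edgeR.

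DUSP5 (chr10:110497907-110511533, plus strand), the nuclear ERK phosphatase, was higher in Mps1i within each matched pair, that is, within libraries of the same experiment and pulse. In experiment 1 it was 49.2 and 47.4 CPM in Mps1i against 40.7 and 43.4 CPM in DMSO. In experiment 2 it was 67.8 and 70.0 CPM in Mps1i against 58.8 and 51.0 CPM in DMSO. The groups overlapped, since experiment 2 was higher in both conditions. The log2 fold change of 0.27 had an SE of 0.145 and an adjusted p of 0.242 by edgeR without the block, and an SE of 0.053 and an adjusted p of 0.00487 with it.

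DUSP4 (chr8:29333064-29350684, minus strand), a nuclear MAP kinase phosphatase, went opposite ways in the 2 experiments. In experiment 1 it was 35.1 and 31.5 CPM in Mps1i, below the 40.1 and 42.3 CPM of DMSO. In experiment 2 it was 42.7 and 42.1 CPM in Mps1i, above the 35.5 and 38.9 CPM of DMSO. Over both experiments the log2 fold change was -0.05 (SE 0.096, adjusted p = 0.780 by edgeR). The effect in experiment 2 minus that in experiment 1 was 0.49 (SE 0.101, 95% interval 0.27 to 0.72) with an adjusted p of 0.0817 by edgeR and 0.00102 by DESeq2. The same difference for DUSP6 was 0.35 (SE 0.080), with adjusted p of 0.112 by edgeR and 0.00834 by DESeq2. Of all genes, 0.359% were called for this difference by edgeR and 2.37% by DESeq2, and of the 10 members none and 2, DUSP4 and DUSP6. The differences for DUSP1 (0.20) and SPRED2 (0.28) were called by neither tool.

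SPRY4 (chr5:142310427-142326455, minus strand), a Sprouty inhibitor of the RAS pathway, was the member with the lowest estimate in this comparison. Its level in Mps1i was 10.3 and 10.2 CPM in experiment 1 and 12.7 and 11 CPM in experiment 2, against 11.7, 14.5, 12.1 and 12.9 CPM in the matching DMSO libraries. It was lower in 3 of 4 matched pairs, and the groups overlapped. The log2 fold change was -0.21 (SE 0.096, 95% interval -0.42 to 0.00089), with an adjusted p of 0.175 by edgeR and 0.119 with the block. SPRY2 (chr13:80335976-80341126, minus strand), the other Sprouty gene, had a log2 fold change of 0.06 with a 95% interval from -0.06 to 0.19. Its libraries ran from 53.2 to 57.4 CPM in DMSO and from 53.0 to 64.0 CPM in Mps1i.

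SPRED1 (chr15:38252836-38357249, plus strand) ran from 34.9 to 38.7 CPM in DMSO and from 32.3 to 38.7 CPM in Mps1i. Its log2 fold change was -0.02 with a 95% interval from -0.16 to 0.13. SPRED2 (chr2:65310851-65432637, minus strand), its paralogue, ran from 41.3 to 44.3 CPM in DMSO and from 36.9 to 45.8 CPM in Mps1i. Its log2 fold change was -0.03 with a 95% interval from -0.19 to 0.13. ETV5 (chr3:186046314-186110318, minus strand), the transcription factor, ran from 153 to 165 CPM in DMSO and from 143 to 160 CPM in Mps1i. Its log2 fold change was -0.06, with a 95% interval from -0.16 to 0.04, the narrowest interval among the 10 members. For these 3 genes the intervals leave out a change as large as that of DUSP10.

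**Figure D2:**
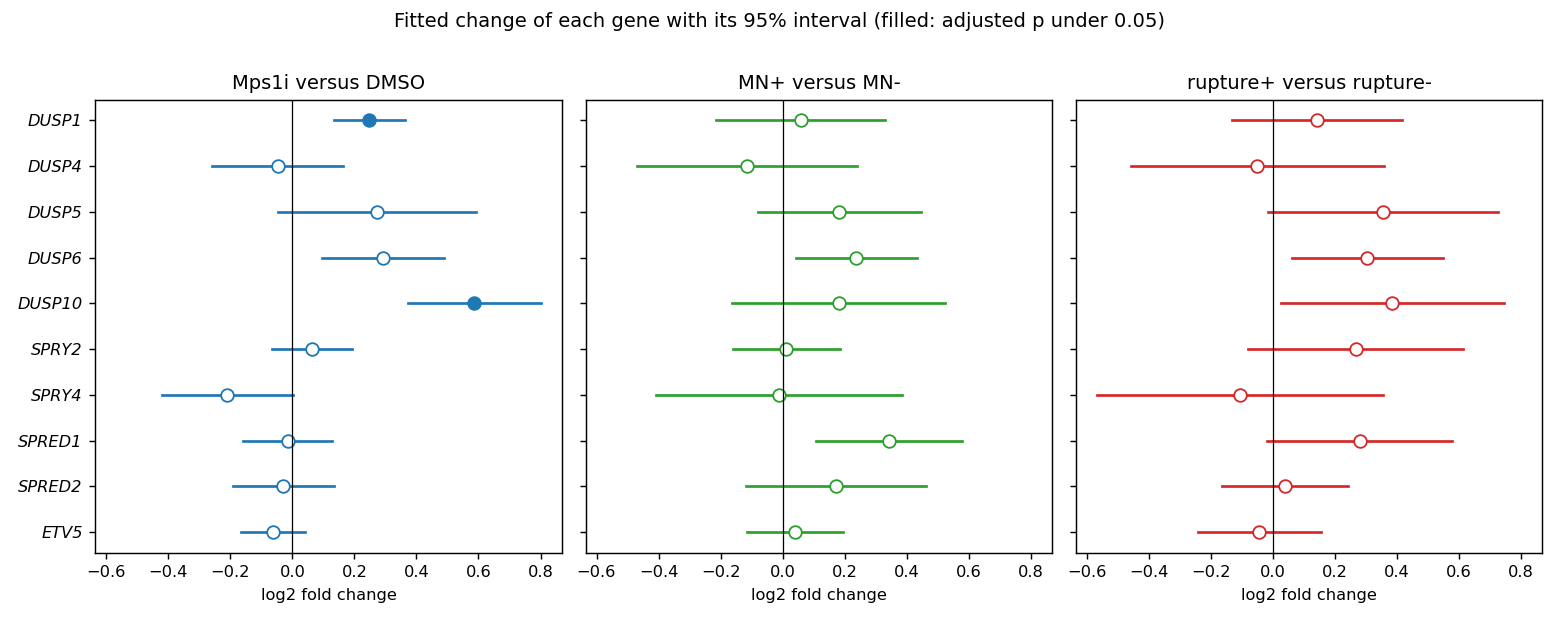
Log2 fold change (horizontal axis) of each gene in the 3 comparisons, fitted by edgeR without a block. Lines are 95% intervals, and filled circles have an adjusted p under 0.05. DUSP1 and DUSP10 in Mps1i versus DMSO are the filled circles, and the intervals of the MN and rupture comparisons are wider for most genes.

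The comparison of MN+ with MN- asked what differs between cells with and without a micronucleus when both had received Mps1i. No member passed the test. Of all 10594 genes, 0 (0%) were called by edgeR without a block, with 789 at an unadjusted p under 0.05, and 5 were called by DESeq2. SPRED1 and DUSP6, both higher in MN+, had an unadjusted p under 0.05 among the 10 members, and 3.79% of all genes were higher at that p. The estimate was positive for 8 of 10 members, and their median log2 fold change was 0.12 beside -0.00048 for all genes.

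SPRED1, which restrains RAS through neurofibromin, had the largest estimate. In experiment 1 its level was 53.4 and 54.4 CPM in MN+ against 40.3 and 33.9 CPM in the MN- cells of the same wells. In experiment 2 it was 45.7 and 48.2 CPM in MN+ against 38.6 and 46.2 CPM in MN-. It was higher in MN+ in 4 of 4 wells, as 15.9% of all genes were, and the groups overlapped by 1 MN- library. The fitted log2 fold change of SPRED1 was 0.34 (SE 0.106, 95% interval 0.11 to 0.58, adjusted p = 0.641 by edgeR). With the experiment as a block the adjusted p was 0.206 by edgeR and 0.0425 by DESeq2, a fit that called 1.57% of all genes. With the well as a block, which pairs the MN+ and MN- cells of a well, edgeR called 0.33% of all genes and no member, and SPRED1 and DUSP6 each had an adjusted p of 0.0692. With the pulse lengths summed within an experiment as well as the block, edgeR called SPRED1 (adjusted p = 0.00156) and DUSP6 (adjusted p = 0.0239) among the members and 7.76% of all genes. That fit held only the summed library of each condition and experiment, so its spread was estimated from very few values. The effect of MN on SPRED1 was smaller in experiment 2 than in experiment 1 by a log2 value of -0.39, with an adjusted p of 0.976 by edgeR.

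DUSP6 was higher in MN+ in 4 of 4 wells too. In experiment 1 it was 64.7 and 70.2 CPM in MN+ against 58.1 and 53.4 CPM in MN-, and in experiment 2 it was 64.7 and 73.3 CPM against 54.1 and 65.9 CPM. The highest MN- library lay above 2 MN+ libraries, so the groups overlapped. The estimate was a log2 fold change of 0.24 (SE 0.088, 95% interval 0.04 to 0.43, adjusted p = 0.641 by edgeR).

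DUSP5, DUSP10 and SPRED2 were also higher in MN+ in every well, with log2 fold changes of 0.18, 0.18 and 0.17 and adjusted p between 0.657 and 0.729 by edgeR. DUSP5 ran from 47.4 to 63.0 CPM in MN+ and from 40.7 to 53.7 CPM in MN-. DUSP10 ran from 14.2 to 19.6 CPM in MN+ and from 12.5 to 18.1 CPM in MN-. DUSP4 was lower in MN+ in every well, with a log2 fold change of -0.12 (SE 0.159, adjusted p = 0.837 by edgeR). The share of all genes lower in every well was not counted. DUSP1 (0.06), ETV5 (0.04), SPRY2 (0.01) and SPRY4 (-0.01) had log2 fold changes smaller than their SEs. No member had every MN+ library above every MN- library, which was so for 2.43% of all genes.

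The comparison of rupture+ with rupture- asked what differs between micronucleated cells whose micronuclei have ruptured and those whose micronuclei are intact. No member was called by edgeR, and of all 9461 genes 3 (0.0317%) were, with 847 at an unadjusted p under 0.05. DUSP6 and DUSP10, both higher in rupture+, had an unadjusted p under 0.05, and 4.87% of all genes were higher at that p. The estimate was positive for 7 of 10 members, with a median log2 fold change of 0.21 beside -0.0022 for all genes. No alternative fit called a member.

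DUSP6 was 64.8, 79.9 and 64.3 CPM in rupture+ in experiments 1, 2 and 3, against 55.6, 61.5 and 52.1 CPM in rupture-. It was the one member whose rupture+ libraries all lay above its rupture- libraries, which 9.58% of all genes did. Its log2 fold change was 0.30 (SE 0.109, 95% interval 0.06 to 0.55, adjusted p = 0.550 by edgeR).

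DUSP10 was 18.9, 14.7 and 20.1 CPM in rupture+ against 14.5, 11.1 and 15.4 CPM in rupture-. Its ratio within an experiment was almost constant, with log2 values from 0.38 to 0.40, whereas its level varied between experiments and the groups overlapped. The log2 fold change was 0.38 (SE 0.161, adjusted p = 0.550 by edgeR). DUSP5 was 45.9, 61.5 and 70.4 CPM in rupture+ against 37.9, 53.8 and 47.3 CPM in rupture-, with a log2 fold change of 0.36 (SE 0.166, adjusted p = 0.557 by edgeR).

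SPRY2 and SPRED1 were higher in rupture+ in 3 of 3 experiments as well, as were 19.2% of all genes. SPRY2 was 49.3, 65.2 and 70.8 CPM against 41.4, 57.3 and 55.5 CPM, a log2 fold change of 0.27 (SE 0.155, adjusted p = 0.575 by edgeR). SPRED1 was 28.1, 29.6 and 37.8 CPM against 23.2, 29.3 and 26.1 CPM, a log2 fold change of 0.28 (SE 0.134, adjusted p = 0.557 by edgeR), and its difference came mainly from experiments 1 and 3. DUSP1 was also higher in each experiment (log2 fold change 0.14). SPRY4 and DUSP4 were lower in each, at log2 fold changes of -0.11 and -0.05, and the share of all genes lower in each was not counted. SPRED2 and ETV5 had log2 fold changes of 0.04 and -0.04, both smaller than their SEs.

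The 3 comparisons share no library, so their matched pairs can be set side by side. Pairs of the same experiment are not independent: the pairs came from 2 experiments for Mps1i, 2 for MN and 3 for rupture. DUSP5, DUSP6 and DUSP10 were higher in 11 of 11 pairs. Of the 9431 genes in all 3 tables, 195 (2.07%) were higher in every pair. Within the Mps1i comparison alone, 20.9% of genes were higher in each of 4 pairs. DUSP10 ranged from 0.08 to 0.94 on the log2 scale over the 11 pairs with a median of 0.38, DUSP6 from 0.10 to 0.51 with a median of 0.26, and DUSP5 from 0.06 to 0.57 with a median of 0.23. DUSP1 was higher in 10 of 11 pairs, SPRED1, SPRED2 and SPRY2 in 8, ETV5 in 5, SPRY4 in 3 and DUSP4 in 2. The median of SPRY4 was -0.12 and that of DUSP4 -0.11.

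**Figure D3:**
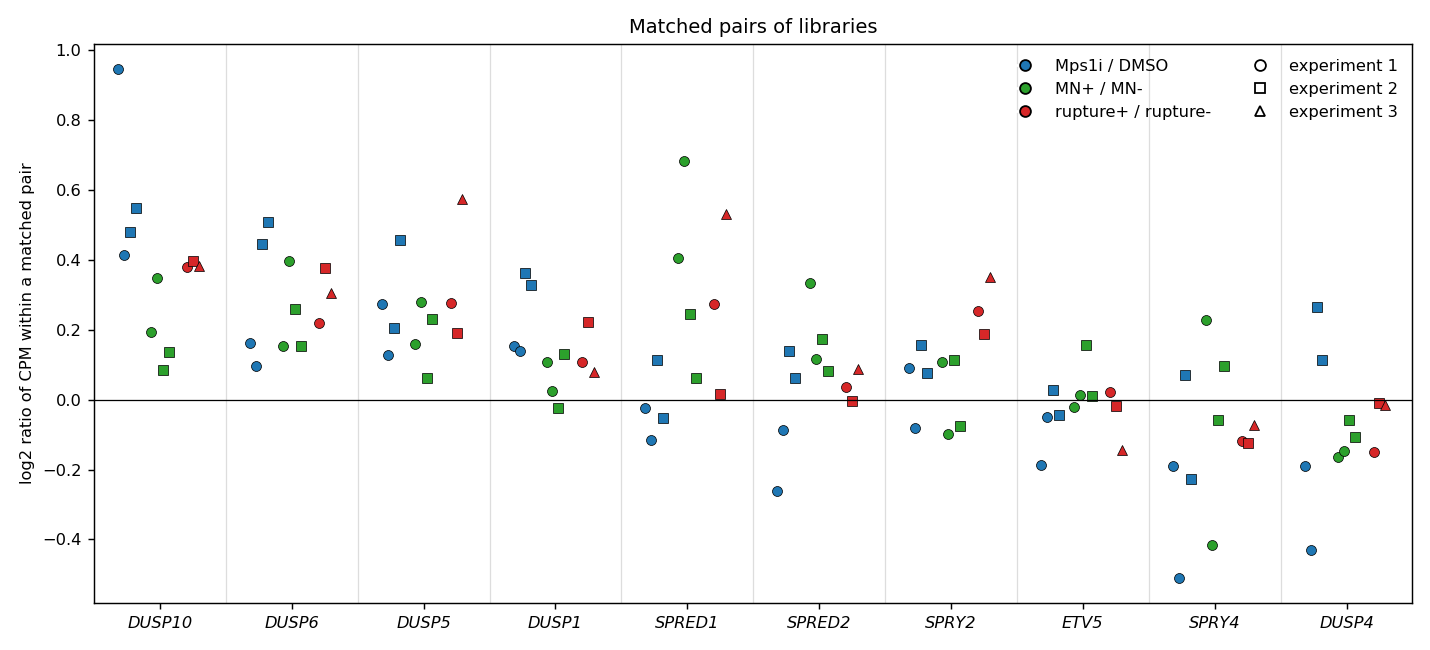
Log2 ratio of CPM (vertical axis) within each of the 11 matched pairs for every gene, coloured by comparison, with the experiment as the shape. Pairs share the experiment and the pulse (Mps1i/DMSO), the experiment and the well (MN+/MN-) or the experiment (rupture+/rupture-). All points of DUSP10, DUSP6 and DUSP5 lie above 0, and the points of DUSP4 lie below 0 except those of experiment 2 of Mps1i/DMSO.

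Pulse length was compared directly where it was crossed with the condition. Between 800 ms and 200 ms, the log2 fold changes of the members lay between -0.05 and 0.04 in the Mps1i and DMSO libraries and between -0.10 and 0.07 in the MN libraries. No gene of 10577 or 10594 was called by edgeR, with 83 and 21 at an unadjusted p under 0.05, and DESeq2 called 2 and 0. The rupture comparison sets 200 ms in rupture+ against 800 ms in rupture-, and the estimates for 800 against 200 ms were 0.03 for DUSP6, 0.05 for DUSP10 and 0.07 for DUSP5 in the MN libraries and 0.04, 0.01 and -0.04 in the Mps1i and DMSO libraries. Each of these had a 95% interval that includes 0.

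EGR1, an immediate early transcription factor gene that ERK induces through serum response elements, is given as a reference for the pathway's output. It was 7.47, 6.52, 4.47 and 2.42 CPM in DMSO and 16.2, 16.2, 14.8 and 16.5 CPM in the matching Mps1i libraries. EGR1 had a log2 fold change of 1.63 (SE 0.265, adjusted p = 0.00334 by edgeR), a larger change than that of any member. In MN+ against MN- it was 0.93 (SE 0.182) and was not called by edgeR without a block (adjusted p = 0.641) or with the experiment as a block (0.146). With the well as a block edgeR called it (0.91, SE 0.097, adjusted p = 0.00092), as did DESeq2 (adjusted p = 0.00387). In rupture+ against rupture- it was 1.12 (SE 0.132, adjusted p = 0.0477 by edgeR), and 8 of 16 alternative fits called it. Its call ended with DESeq2's size factors in edgeR (adjusted p = 0.0508), without experiment 2 or 3, and without any single library except the rupture+ library of experiment 1. In the fits that ended the call, adjusted p by edgeR reached 0.476 and log2 fold changes ran from 1.01 to 1.2. EGR1 was higher in 11 of 11 pairs, by at least 0.58 on the log2 scale.

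The rest of the pathway was read from lists of named genes. Of the 8 other MAP kinase phosphatase, Sprouty and Spred genes listed, 3 were measured in the Mps1i table (DUSP7, SPRY1 and SPRED3) and none was called. Of 13 other negative regulators measured, PEA15, which holds ERK in the cytoplasm, rose (log2 fold change 0.20, adjusted p = 0.0113 by edgeR). RASA1, a RAS GTPase-activating protein, fell (-0.39, adjusted p = 0.00068), and the other 11 were not called. Of 17 genes of the cascade itself that are described here, SHC1, a receptor adaptor, rose (0.14, adjusted p = 0.0358 by edgeR), and 16 were not called. With the block NRAS, a RAS gene, fell as well (-0.19, adjusted p = 0.0270 by edgeR). The medians of the last 2 lists were -0.04 and -0.0077, beside -0.0038 for all genes.

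Among 15 growth factor receptors and ligands measured, 4 rose after Mps1i and none fell. They were the EGFR ligands TGFA (log2 fold change 0.54, SE 0.100, adjusted p = 0.0068 by edgeR) and AREG (0.43, SE 0.094, adjusted p = 0.0153), the PDGF ligand PDGFC (0.30) and the receptor IGF1R (0.22). TGFA ran from 13.9 to 17.8 CPM in DMSO and from 20.7 to 27.3 CPM in Mps1i. With the block, 6 rose, with PDGFRB and NRG1 added, and 2 fell, FGF5 and EGFR. Among 20 other ERK output genes measured, 4 rose without the block, EGR1, MYC (0.26), CCN1 (0.21) and RPS6KA1 (0.19), and MCL1, an anti-apoptotic gene, fell (-0.30). With the block 8 rose, with EPHA2, IER2, JUNB and RPS6KA2 added, and 3 fell, CCND1, FOSL1 and MCL1. The shares of all genes called higher and lower were 6.32% and 5.76% without the block, and 12.7% and 11.8% with it. The medians of these 2 lists were 0.10 and 0.08. Of 13 genes of the JNK and p38 cascades, MAPK14, which encodes p38 alpha, a substrate of DUSP10, fell (-0.22, adjusted p = 0.0287 by edgeR), and none rose without the block. With the block MAP2K3, a kinase that activates p38, rose (0.24, adjusted p = 0.000699 by edgeR) and MAPKAPK3, a kinase downstream of p38, fell (-0.12, adjusted p = 0.0180).

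In MN+ against MN-, no gene of these lists was called by edgeR without a block or with the experiment as a block, and EGR1 alone was called with the well as a block. In rupture+ against rupture-, EGR1 was the only listed gene called, and the block added FOS (log2 fold change 0.74, adjusted p = 0.0352 by edgeR). Estimates in MN+ against MN- were mostly positive in several lists: in 15 of 15 receptors and ligands (median 0.13), 11 of 14 other negative regulators (0.15), 9 of 13 JNK and p38 genes (0.09), 15 of 21 other output genes (0.07) and 11 of 18 cascade genes (0.07), but in none of the 2 other phosphatase, Sprouty and Spred genes (-0.06). In rupture+ against rupture-, 8 of 15 receptors and ligands had a positive estimate, with a median of 0.02.

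**Figure D4:**
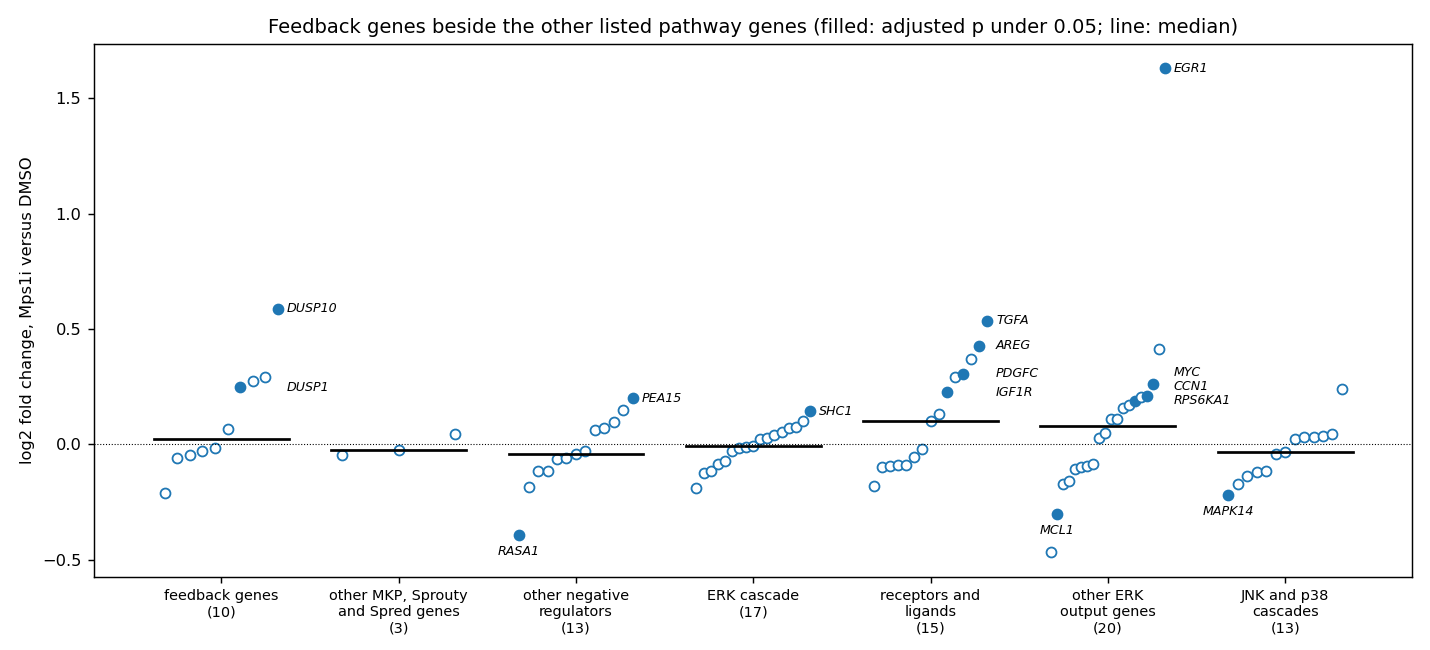
Log2 fold change in Mps1i versus DMSO (vertical axis) of the 10 feedback genes and of each other list, with the number measured in brackets. Points are genes in rank order, filled points have an adjusted p under 0.05 by edgeR without a block and carry the gene's name, and black lines are medians. EGR1 (1.63) lies above all other points, and the medians lie between -0.04 and 0.10.

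Over the 22 libraries, deviations of log2 CPM from a gene's mean in its own table linked the members only in part. The genes most like DUSP6 among the 9431 in all tables were EGR1 (Pearson r = 0.820), CNTNAP3 (0.818) and KLF7 (0.817). SPRY4 was most like CDC14B (0.844), DUSP4 (0.818) and PPFIA1 (0.767), so that the pair of members with the highest correlation was SPRY4 and DUSP4. DUSP1 was most like PLIN2 (0.930), TRIB3 (0.863) and ZNF337 (0.862), and its r with DUSP4 and DUSP10 was 0.01. These values describe 22 points that share experiments, conditions and depth.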

How the data were processed

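RNA was measured by SMART-Seq v4 libraries from sorted RPE1 cells, 22 libraries in 6 conditions. The labels list 29 samples, since some libraries were divided, and no source used here says whether columns add up such parts. Estimated counts of each gene were deposited, which the authors made with Salmon (version 1.2 in the submitters' notes) on hg38 with GC-bias correction, imported with tximeta and kept at 700 counts or more in at least 2 samples. They are whole numbers, unscaled between libraries and with no transcript-length offset, and low genes cannot be seen in them. The authors tested with DESeq2.

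Each table was fitted here with edgeR 4.0.16 in R 4.3.3 (TMM, quasi-likelihood, condition alone, adjustment over all genes, threshold 0.05). Each standard error is the log2 fold change divided by √F. Alternatives were DESeq2 1.42.0, limma-voom (limma 3.58.1), other scaling and filters, pulse terms, a block for the experiment or the well, and leaving out libraries or experiments. Libraries of an experiment share a day in the labels, which makes the block a pairing. Across conditions, their deviations from group means correlated with r from 0.0279 to 0.380, -0.0133 to 0.659 and 0.00951 to 0.229 in the Mps1i, MN and rupture tables. Between experiments r ran from -0.375 to -0.0871, -0.684 to -0.0979 and -0.146 to 0.104, so the ranges overlapped in the rupture table. Centring on group means by itself lowers r between experiments. Matched pairs used TMM-scaled CPM. Named genes were all members, the called genes of each list with the smallest adjusted p, the 3 most correlated genes of DUSP6, SPRY4 and DUSP1, and EGR1. Some genes of the cascade are not reported here. The members and lists were chosen with earlier results of these data known. Likeness used log2 CPM with a prior count of 2, TMM-scaled within each table, less the gene's mean in that table. Exon lengths and positions are from GENCODE v44 on GRCh38. Promoters are RefSeq windows, used for 7 of the 10 members. Scripts ran in Python 3.11.15. The fits were also run on simulated counts drawn independently for each library, which cannot show how shared experiments affect the p-values.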

Additional observations from a re-analysis of the deposited data

Results flagged for a closer look

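The highest DUSP6 level among the Mps1i libraries, 75.7 CPM in the 800 ms library of experiment 1, stood far from the other 3 relative to their spread. The lowest SPRY2 level among the MN- libraries, 50.9 CPM in the 800 ms library of experiment 2, stood apart in the same way. So did the highest SPRY4 level among the MN- libraries, 14.1 CPM in the 200 ms library of experiment 2, the shallow library of that experiment. With 40 groups of 4 libraries examined, 3 were marked, and chance marks about 1 in 20.

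The Mps1i effect on DUSP4 was negative in both pairs of experiment 1 and positive in both pairs of experiment 2, and the difference was 0.49 on the log2 scale. SPRED2 did the same, with a difference of 0.28. Tested as an interaction, DUSP4 had an adjusted p of 0.0817 by edgeR and 0.00102 by DESeq2, and SPRED2 of 0.226 and 0.110.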

How the results depend on the processing

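In Mps1i versus DMSO, 4 members were called with the experiment as a replicate block in edgeR, in DESeq2, and with pulse lengths summed, against 2 without the block, and leaving out libraries or experiments gave 1 to 5. In MN+ versus MN-, 1 was called with the block in DESeq2 and 2 with pulse lengths summed and the block. For the Mps1i effect between experiments, DESeq2 called 2. The block changed no other call of a member. The other 85 counts of members kept within 1.5 times of the reported ones. Among single fold changes, 502 kept direction and call, 15 gained a call and 1 lost it. The sign turned in 27, all but 1 on leaving out a library or an experiment. These were DUSP4 (-0.31 to 0.19), SPRED1 (-0.0676 to 0.0334) and SPRED2 (-0.17 to 0.10) in Mps1i versus DMSO; DUSP1 (-0.0232 to 0.156), DUSP4 (-0.26 to 0.0258), SPRY2 (-0.0309 to 0.0373) and SPRY4 (-0.16 to 0.12) in MN+ versus MN-; and DUSP1 (-0.0008 to 0.24), DUSP4 (-0.27 to 0.13), SPRY4 (-0.31 to 0.11) and ETV5 (-0.0877 to 0.0256) in rupture+ versus rupture-. SPRY4 in MN+ versus MN- was also 0.0018 with pulse lengths summed and the block. DUSP4 in Mps1i versus DMSO was 0.19 without experiment 1 (adjusted p = 0.0332 by edgeR) and -0.31 without experiment 2 (0.0563), and the cause was not tested. Over all genes in Mps1i versus DMSO, 668 were called higher and 609 lower without the block, and 1340 and 1253 with it. All levels of the members moved by less than 1 SD when the 22 libraries were scaled together. Genes under 700 counts could not be read from these tables.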
